A study of Mus musculus with 23 samples.

Results

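The genes described here encode the proteins of the cytosolic ribosome. They were chosen by symbol from the authors' deposited table of Inv1DelCTCF against Inv1, as Rpl or Rps followed by a number, with Rpsa and the stalk genes Rplp0, Rplp1 and Rplp2 added, and with a mean normalised count of at least 100. Of the 34682 genes in the authors' deposited table, 84 had such a symbol and 71 passed the limit, 29 for the small subunit and 42 for the large. Nearest the limit in the authors' deposited table were Rpl31 with a mean of 128, Rpl37 with 1210 and Rpl22l1 with 1225 above it, and Rpl30 with 94.7, Rps2 with 74.1 and Rpl34 with 73.8 below it. Because the genes were picked from this comparison, their changes in it are given as a description, and the adjusted p-values printed are those the authors deposited.

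The RNA was polyA RNA from the distal forelimbs of mice at embryonic stage E11.5. Inv1 carries an inversion made with CRISPR/Cas9 that places enhancers of the limb gene Epha4 among other genes, and Inv1DelCTCF, by its name, adds the loss of a CTCF site to that inversion, so both groups share the inversion. There were 3 libraries of Inv1 and 2 of Inv1DelCTCF, and the other groups used here are 5 of wild type, 4 of Inv2, 3 of Inv3 and 3 of Inv4, which carry further inversions. The labels name G4, a line of embryonic stem cells, for every sample, and do not say how many clones or litters stand behind a group, and the p-values reflect only how much these libraries vary. No value per library was used, the depth of single libraries is unknown, levels are means over the 5 libraries or group levels rebuilt from the mean and the fold change, and the spread is known only through the authors' standard error (SE).

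A ribosome has a small subunit, which reads the messenger RNA, and a large subunit, which joins amino acids, and each is built from ribosomal RNA and a set of proteins that are mostly needed in equal numbers. Most messenger RNAs of ribosomal proteins begin with a terminal oligopyrimidine, a cytosine followed by a run of pyrimidines, through which mTOR and Larp1 control their translation as a group. Mutations in single ribosomal protein genes cause Diamond-Blackfan anaemia in people, in some families with malformed thumbs, and pigment, tail or skeletal phenotypes in mice.

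The start regions of 8 genes are printed to show this shared feature and where it is missing at the annotated start. Rpl28, Rpl18 and Rps10 were lower in Inv1DelCTCF, Rpl38 and Rpl35 were not called, and Rpl22l1 and Rpl22 are a pair of paralogs of which the first was higher. Rpl41 was lower and, like Rpl22, has no such run there. Each sequence is the strand of the gene from 60 bases before the start to the first 20 bases from it, 80 bases in all, from RefSeq on GRCm38.p6, and the capitals mark the cytosine with its pyrimidine run. The windows lie at chr7:4792905-4792984 on the plus strand (Rpl28), chr7:45718011-45718090 on the plus strand (Rpl18), chr17:27635225-27635304 on the minus strand (Rps10), chr11:114668520-114668599 on the plus strand (Rpl38), chr2:39005112-39005191 on the minus strand (Rpl35), chr3:28805448-28805527 on the plus strand (Rpl22l1), chr10:128549149-128549228 on the minus strand (Rpl41) and chr4:152325666-152325745 on the plus strand (Rpl22).
Rpl28: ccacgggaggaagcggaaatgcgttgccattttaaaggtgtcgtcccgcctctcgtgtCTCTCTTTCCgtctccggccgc
Rpl18: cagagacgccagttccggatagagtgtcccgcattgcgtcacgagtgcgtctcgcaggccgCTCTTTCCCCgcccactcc
Rps10: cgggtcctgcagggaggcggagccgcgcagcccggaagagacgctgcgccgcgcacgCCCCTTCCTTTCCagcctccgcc
Rpl38: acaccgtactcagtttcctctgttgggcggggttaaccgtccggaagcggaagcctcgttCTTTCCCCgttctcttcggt
Rpl35: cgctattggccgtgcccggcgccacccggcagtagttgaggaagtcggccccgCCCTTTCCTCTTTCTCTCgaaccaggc
Rpl22l1: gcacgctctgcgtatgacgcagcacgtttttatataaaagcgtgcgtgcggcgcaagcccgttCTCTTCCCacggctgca
Rpl41: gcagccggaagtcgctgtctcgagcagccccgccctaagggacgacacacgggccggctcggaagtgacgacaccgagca
Rpl22: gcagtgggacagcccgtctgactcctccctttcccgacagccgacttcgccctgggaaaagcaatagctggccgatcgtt

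The run was 10 bases long in Rpl28 and Rpl18, 13 in Rps10, 18 in Rpl35 and 8 in Rpl38 and Rpl22l1. With the annotated start as position 0, it began at position -2 in Rpl28, 1 in Rpl18, -3 in Rps10, -7 in Rpl35, 0 in Rpl38 and 3 in Rpl22l1. A promoter window of 300 bases, 250 of them before the start, was found for 53 of the 71 genes. A cytosine with at least 4 further pyrimidines began within 5 bases of the start, on the plus strand, in 25 of the 53, which is 47.2%, against 21.2% of 27025 genes with a window and 23.7% of the 8371 of these with an adjusted p. The median log2 change was -0.12 in the 25 genes with the run and -0.12 in the 28 without it. Within 30 bases of the start the shares were 86.8% and 64.9%, and CTTTCC on the plus strand stood there in 18.9% of the 53 against 3.61% of all genes, a distance and a motif chosen after seeing the data. That the letters are missing from a window says nothing of the messenger RNA made from another start.

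Other motifs were searched on both strands of the 300 bases. CCGGAA, the core of an Ets site, was in 56.6% of the 53 genes against 16.7% of all genes and 32.2% of genes with an adjusted p. GCCATNTT and AAGATGG, both forms of the Yy1 site, which can overlap each other on opposite strands, were in 20.8% and 17.0%, against 6.96% and 7.28% of all genes and 10.4% and 8.46% of genes with an adjusted p. GGGCGG, the Sp1 box, was in 64.2%, below the 72.1% of genes with an adjusted p and above the 38.2% of all genes. CACGTG, the E-box that Myc proteins bind, was in 9.43%, above the 8.09% of all genes and below the 12.1% of genes with an adjusted p. TATAAA was in 11.3%, below the 15.7% of all genes and above the 7.97% of genes with an adjusted p. These matches are descriptions of the letters and were not compared with bound factors.

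Ribosomal protein genes were among the most abundant transcripts of the limb. In the authors' deposited table their mean normalised counts ran from 128 (Rpl31) to 53953 (Rpl4) with a median of 10631, and together they held 3.23% of the 3.02e+07 normalised counts of all genes. Per kb of transcript, the scale used here to rank levels of different genes, the median was 13418 against 402 over all genes with an adjusted p. Of the 50 highest genes per kb, 26 were ribosomal protein genes. The highest was the stalk gene Rplp1 with 38523 per kb, followed by Rpl4, which lines the exit tunnel, with 35080, Rpl41, the gene of the shortest ribosomal protein, with 34920, Rplp0, the base of the stalk, with 33559, and Rps18 with 32163.

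The lowest per kb were Rpl31 with 122, Rpl37 with 1449, Rpl21 with 1463, Rps4l with 1559 and Rps15a with 1644. The 25th and 75th percentiles were 5448 and 19678. The lower end of the range rests on Rpl31 alone, and the limit of 100 on the mean count keeps lower genes out. Part of that spread depends on the length used. Rps15a ranked near the bottom by its longest transcript and 44 of 71 by the median transcript length. The rankings by both lengths had a Spearman correlation of 0.897 over the 71 genes, given as a description since the counts are the same.

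**Figure D1:**
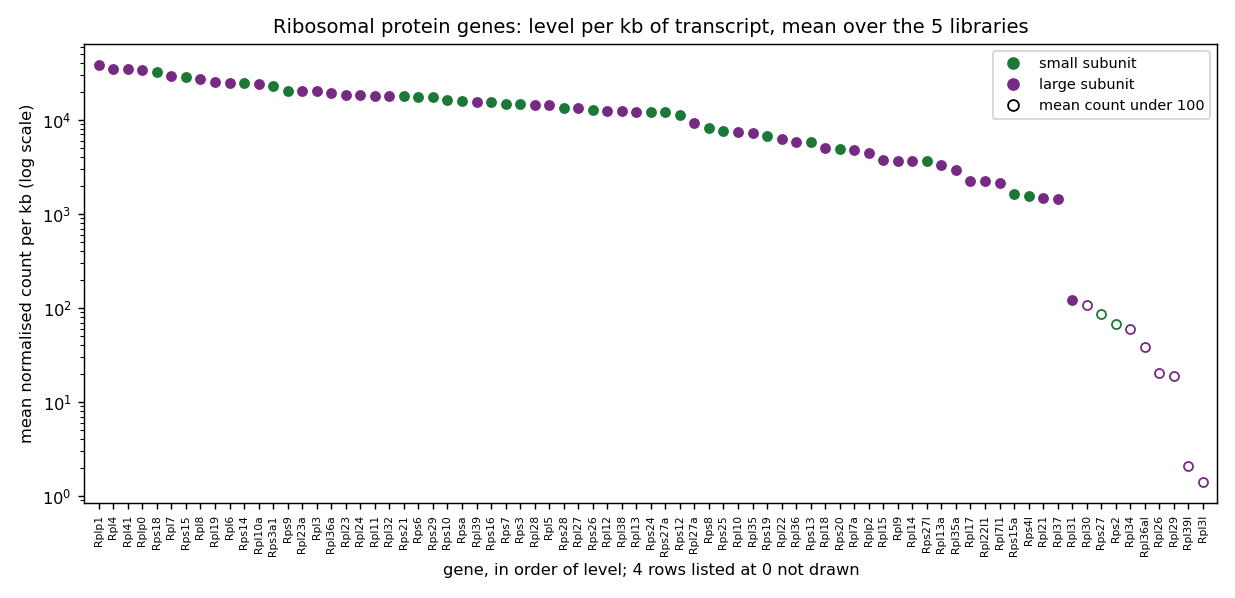
Mean normalised count per kb of the longest transcript (log scale) for ribosomal protein genes, in order of level, from the authors' deposited table. Filled points are 68 of the 71 genes described, from 122 (Rpl31) to 38523 (Rplp1), and open points are the 9 genes with a mean under 100 that were not at 0.

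A further 13 genes with such a symbol had a mean under 100 in the authors' deposited table. Rps4x, Rps23 and Rpl10l were among 4 listed at 0, and Rps27, a gene of the small subunit, had a mean of 39.1. Rpl36al had 49.0, Rpl29 16.1, Rpl26 13.3, Rpl3l 1.96 and Rpl39l 1.67 in the authors' deposited table. None of the 13 had an adjusted p, and their log2 changes, between -2.19 and 1.15 for the 9 not at 0, had SEs of up to 2.09. Rpl10l, Rpl3l and Rpl39l are known from testis and muscle, but Rps4x and Rps23 are parts of the ribosome of nearly every cell, so a listing at 0 here is no measure of their level.

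Ribosomal protein genes have many processed pseudogenes, and the share of their sequence found elsewhere was measured. Of the 50-base words of the coding sequence, a median of 90.8% over 70 genes also stood in transcripts of other genes in GENCODE, with a range from 0 to 100%. It was 100% for Rps23 and 90.1% for Rps4x, which were both listed at 0. How the authors counted reads that match several genes is not given in the sources used here, so the levels of the 57 genes with at least 50% shared are uncertain. Log2 change and shared percentage had a Spearman correlation of 0.0447 over the 70 genes, whose reads come from the same libraries. The 7 pseudogene rows named for a ribosomal protein summed to 1092 normalised counts in the authors' deposited table, 0.112% of the counts of the 71 genes. Only symbols with -ps were summed, whereas Rpl7a alone shared words with 119 pseudogenes. The sum therefore does not show how many reads pseudogenes took.

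Against Inv1, ribosomal protein genes were more often lower than higher in Inv1DelCTCF. Of the 71, 17 were called lower and 3 higher in the authors' deposited table at an adjusted p under 0.05, and 29 had an unadjusted p under 0.05. That is 28.2% called, where the share over all 11218 genes with an adjusted p was 11.7% (7.89% lower and 3.81% higher) and that over the 6434 genes with a mean of at least 1000 was 16.0% (11.5% lower and 4.54% higher). Since the genes were picked from this comparison, nothing is read from these shares. A negative log2 change stood in 52 genes (73.2%), against 53.1% of all genes with an adjusted p and 57.6% of those with a mean of at least 1000, and the median was -0.11, against -0.01 and -0.03. The changes were small, with called falls to between 0.728 and 0.901 of the Inv1 level in the authors' deposited table. Summed over the 71 genes, the level rebuilt from the authors' deposited table was 0.922 of that in Inv1, and the share of all counts was 3.31% in Inv1 and 3.12% in Inv1DelCTCF. In distal forelimb tissue, fewer cells rich in these transcripts and less of them per cell cannot be told apart. Across 10940 genes the log2 change also ran with the GC content of the transcript (Spearman correlation -0.521). What lies behind that trend was not tested.

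**Figure D2:**
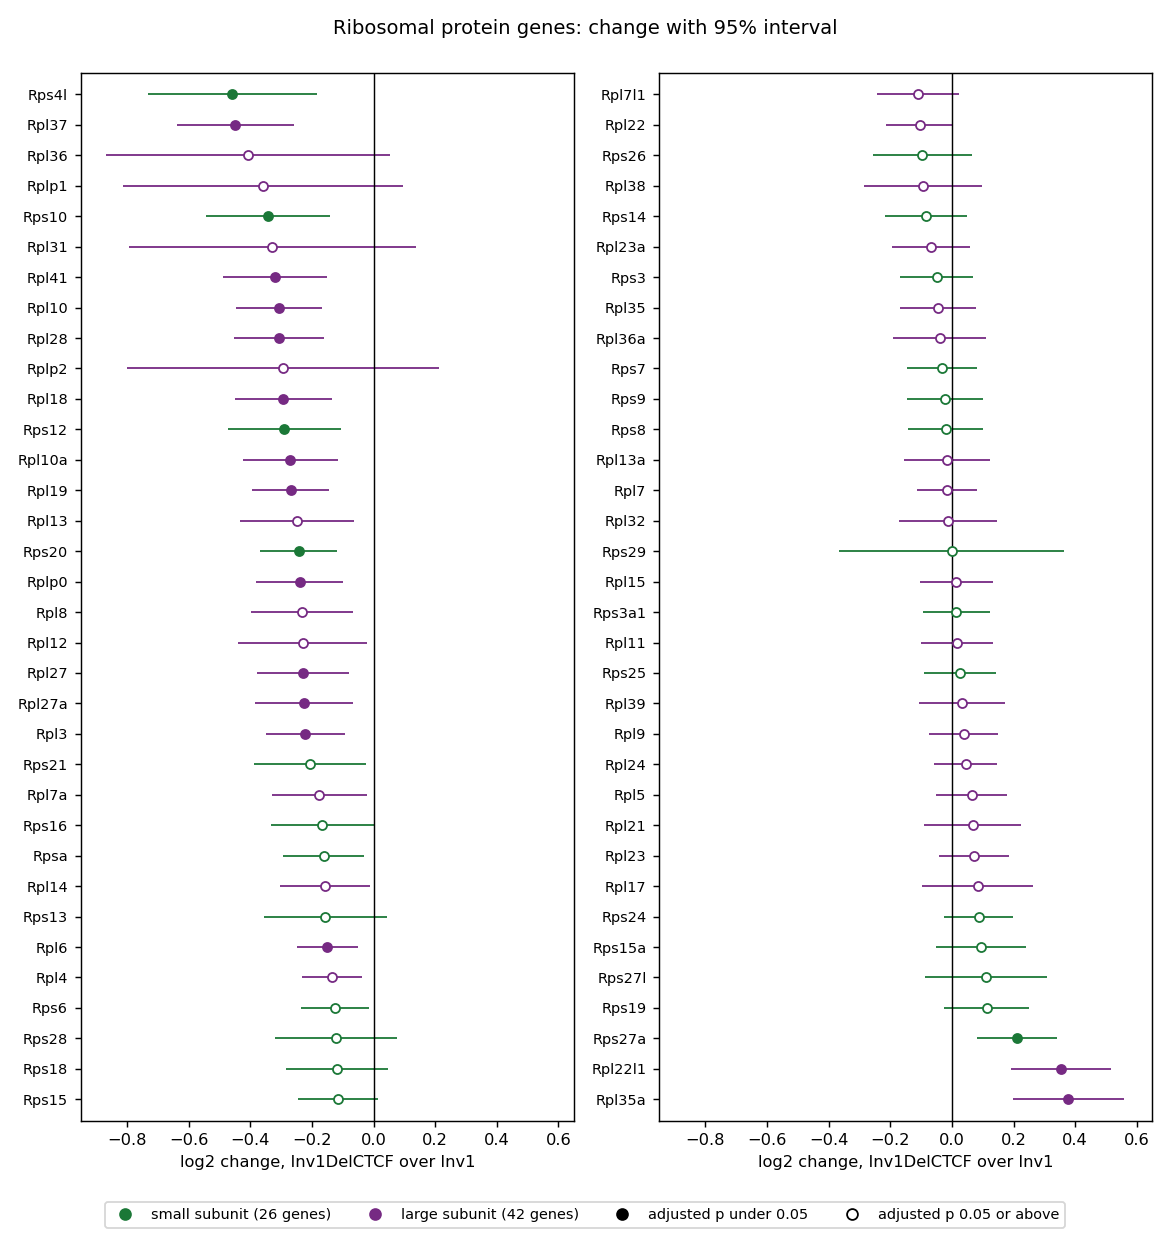
The log2 change of 68 of the 71 genes (positive is higher in Inv1DelCTCF) with its 95% interval from the authors' SE, in order of size, for the small subunit (green) and the large subunit (purple). Filled points are 19 of the 20 genes with an adjusted p under 0.05, and Rpl36, Rplp1, Rpl31, Rplp2 and Rps29 have the widest intervals.

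Of the 3 genes called higher, Rpl35a encodes a protein of the large subunit and is mutated in Diamond-Blackfan anaemia. Its rebuilt level was 1372 in Inv1 and 1782 in Inv1DelCTCF, a log2 change of 0.38 (SE 0.092, adjusted p = 0.00174 per the authors' deposited table). Rpl22l1, a paralog of Rpl22, had rebuilt levels of 1102 and 1408, a log2 change of 0.35 (SE 0.083, adjusted p = 0.00106 per the authors' deposited table). Rps27a encodes a fusion of ubiquitin with a small subunit protein, and its rebuilt levels were 8940 and 10348, a log2 change of 0.21 (SE 0.066, adjusted p = 0.0191 per the authors' deposited table). Rpl35a and Rpl22l1 belong to the least abundant of these genes, and Rps27a lies near their median count. Next in size and not called were Rps19 and Rps27l with 0.11 each, Rps15a and Rps24 with 0.09 each, Rpl17, of the exit tunnel, with 0.08 and Rpl23 with 0.07 in the authors' deposited table.

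In the large subunit 12 of 42 genes were called lower and 2 higher (33.3% called) in the authors' deposited table. Of all genes with an adjusted p 11.7% were called, and 16.0% of those with a mean of at least 1000. The median log2 change of the large subunit genes was -0.14 and their summed level was 0.906 of that in Inv1. Rpl37 had the greatest fall of a called protein-coding gene, from a rebuilt level of 1354 in Inv1 to 993 in Inv1DelCTCF, a log2 change of -0.45 (SE 0.096, adjusted p = 0.000294 per the authors' deposited table). Rpl10, which joins late in assembly and lies near the site of peptide bond formation, went from a rebuilt 6861 to 5544, a log2 change of -0.31 (SE 0.071, adjusted p = 0.000882 per the authors' deposited table). Rpl28 went from 17357 to 14041 with the same change of -0.31 on the log2 scale (SE 0.075, adjusted p = 0.00174 per the authors' deposited table). Rpl41 showed a log2 change of -0.32 (SE 0.086) and Rpl18 one of -0.29 (SE 0.081 per the authors' deposited table). Both were high in Inv1, at rebuilt levels of 22079 and 16327.

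The other large subunit genes called lower lay between -0.27 and -0.15. Rpl10a, of the L1 stalk, and Rpl19, which takes part in a bridge between the subunits, had -0.27 each in the authors' deposited table. Rplp0 had -0.24, Rpl27 and Rpl27a -0.23 each, Rpl3, next to the peptidyl transferase centre, -0.22 and Rpl6 -0.15 in the authors' deposited table. Just short of the threshold were Rpl4 with an adjusted p of 0.0508, Rpl8 with 0.0524 and Rpl13 with 0.0629 in the authors' deposited table. Rpl36 at -0.41 (SE 0.235) and Rpl31 at -0.33 (SE 0.237) were not called in the authors' deposited table, and their intervals reached from -0.87 to 0.05 and from -0.79 to 0.14.

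In the small subunit 5 of 29 genes were called lower and 1 higher (20.7% called) in the authors' deposited table. The share was 11.7% of all genes with an adjusted p and 16.0% of those with a mean of at least 1000. The median log2 change of the small subunit genes was -0.10 and their summed level was 0.947 of that in Inv1. Rps10, a protein of the subunit's head and a gene of Diamond-Blackfan anaemia, went from a rebuilt 15901 in Inv1 to 12551 in Inv1DelCTCF, a log2 change of -0.34 (SE 0.103, adjusted p = 0.0150 per the authors' deposited table). Rps20, also of the head, went from 19180 to 16206, a log2 change of -0.24 (SE 0.063, adjusted p = 0.00387 per the authors' deposited table). Rps12 showed a log2 change of -0.29 in the authors' deposited table and was also called. Rps6, the target of the S6 kinases, had -0.12 (adjusted p = 0.134) and was not called in the authors' deposited table. The difference between the subunits was not tested. Rps29 showed a log2 change of 0.00 with an SE of 0.186 in the authors' deposited table, so its interval, -0.37 to 0.36, covers the changes of every called small subunit gene except Rps4l.

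The stalk, which recruits the factors of translation, was negative in its 3 genes and called in 1. Over all genes with an adjusted p, 53.1% were negative and 11.7% called. With a mean of at least 1000, these shares were 57.6% and 16.0%. Rplp0 went from a rebuilt 48545 to 41116, while Rplp1 at -0.36 (SE 0.231, adjusted p = 0.322) and Rplp2 at -0.29 (SE 0.258, adjusted p = 0.486) were not called in the authors' deposited table. The SEs of Rplp1 and Rplp2 were over 3 times that of Rplp0, 0.0716, although Rplp1 was more abundant than most of the 71 genes. Only 5 of the genes had an SE above 0.15, none of them called, and the median SE was 0.0717, against 0.0966 over all genes with an adjusted p. The genes of the 5S particle, Rpl5 and Rpl11, whose free proteins bind Mdm2 when ribosome assembly is disturbed, stood at 0.06 and 0.02 in the authors' deposited table, neither called.

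**Figure D3:**
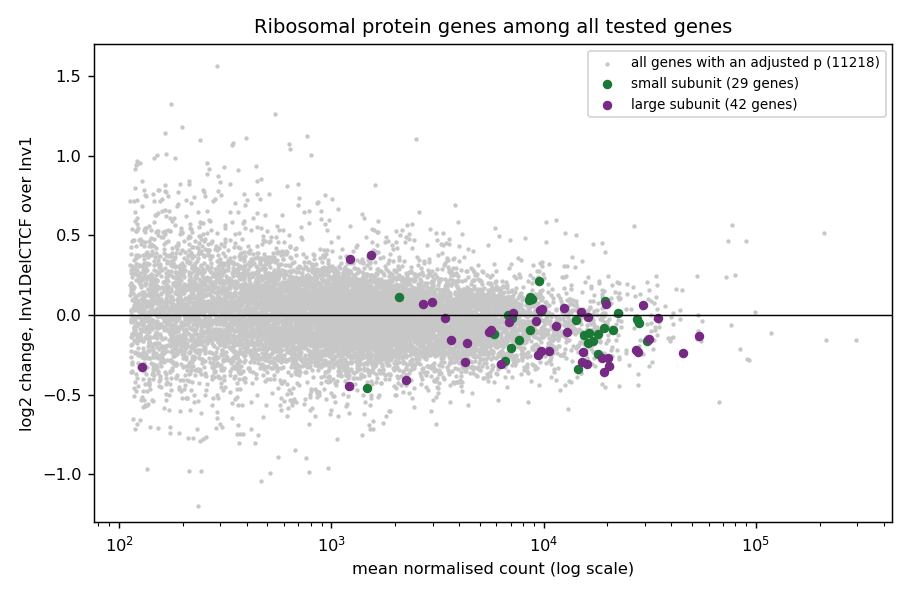
The log2 change of all 11218 genes with an adjusted p (grey) and of the ribosomal protein genes (coloured) against the mean normalised count (log scale), from the authors' deposited table. Of the 71 genes, 70 have a mean of at least 1000, and their log2 changes lie between -0.46 and 0.38 in the authors' deposited table.

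Some ribosomal proteins have a second gene, and 8 such paralogs were rows of the authors' deposited table. By counts not scaled to length, Rpl22l1 was 7.67% of the summed level of the pair Rpl22 and Rpl22l1 in Inv1. In Inv1DelCTCF it was 10.2%, both rebuilt from the authors' deposited table. Per kb of the longest transcript, as a mean over the 5 libraries, Rpl22 had 6290 and Rpl22l1 had 2218. Rpl22 had a log2 change of -0.11 (adjusted p = 0.209 per the authors' deposited table). The difference between both log2 changes was 0.46 and was not tested. Rpl7l1 at -0.11 and Rpl7 at -0.02 were not called in the authors' deposited table. Rps27l, which p53 is known to induce, had a mean of 2086 in the authors' deposited table, where its parent Rps27 had 39.1. Rpl36a had a mean of 9256, Rpl39 one of 9576, Rpl3 one of 27278 and Rpl10 one of 6334 in the authors' deposited table. These means were all far above those of their paralogs. Both Rpl36a and Rpl36al shared 100% of such words, so the gap between these genes is uncertain too. Rpl36a at -0.04 and Rpl39 at 0.03 were not called in the authors' deposited table.

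Rps4l had the lowest log2 change of the 71 genes, -0.46 (SE 0.140, adjusted p = 0.0168 per the authors' deposited table). Its symbol fits the rule, but GENCODE types it as a transcribed processed pseudogene, while every other row with such a symbol is typed as protein coding. It had rebuilt levels of 1649 in Inv1 and 1201 in Inv1DelCTCF, whereas its parent Rps4x was listed at 0 and a second Rps4x row had a mean of 8.10 in the authors' deposited table. Whether reads of Rps4x were counted for Rps4l was not tested.

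Genes known from disease or from mouse mutants were counted separately, where 28.2% of the 71 genes were called. The share was 11.7% of all genes with an adjusted p and 16.0% of those with a mean of at least 1000. Neither list was tested. Of 16 Diamond-Blackfan genes among the 71, 1 was called higher (Rpl35a) and 3 lower (Rps10, Rpl18 and Rpl27) in the authors' deposited table, with a median of -0.02. Of 7 genes with pigment, skeletal or other patterning mutants in mice, 2 were called lower, Rps20, of a dark skin mutant, and Rpl27a. Rpl38, the gene of the tail-short mutant, whose loss alters translation of Hox messages, showed a log2 change of -0.09 (SE 0.098, adjusted p = 0.565 per the authors' deposited table). Rpl24, of the belly spot and tail mutant, had 0.04, Rps19, of a dark skin mutant, 0.11, Rps7 -0.03 and Rpsa, the laminin receptor, -0.16 in the authors' deposited table, none of them called.

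Among the 71 genes, those with a GC-rich transcript tended to be lower in Inv1DelCTCF, as did genes in general. The Spearman correlation of the log2 change with the GC content of the transcript was -0.483 over the 71 genes and -0.521 over 10940 genes, which share the libraries. The median GC content was 52.9% in the 17 genes called lower, 47.4% in the 3 called higher and 50.6% in the 51 not called. With a trend in GC content and length subtracted, 6 of the 71 were called, 5 lower (Rpl10, Rpl28, Rpl37, Rps20 and Rpl4) and 1 higher (Rpl35a), and 5 of the original 20 were among them. That is 8.45%, beside 3.52% of the 10940 genes, and the median was -0.08, beside 0.01. Rps10, with a GC content of 60.3%, moved from -0.34 to -0.15, and Rpl22l1, with 40.6%, from 0.35 to 0.20. Rps20, whose longest transcript has a length of 3706 bases and a GC content of 41.3%, moved from -0.24 to -0.35, and the parts of GC content and length in these moves were not separated. The correlation with the log2 transcript length, which is 0.0681 over the 71 genes, was weak before the subtraction, and that with GC content was -0.0575 after it.

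**Figure D4:**
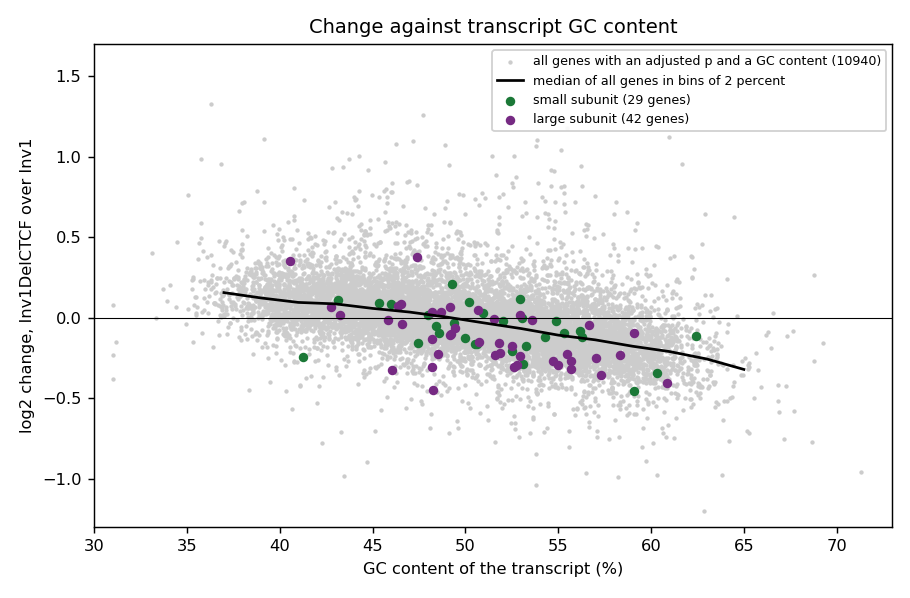
The log2 change against the GC content of the transcript for 10940 genes (grey), their median in bins (line) and the ribosomal protein genes (coloured), from the authors' deposited table. The line falls from left to right, and the coloured points fall with it, with a Spearman correlation of -0.483 over the 71 genes.

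Other genes of protein synthesis were counted in the authors' deposited table, where 11.7% of all genes with an adjusted p were called. Of the 14 translation factors and related genes whose messages begin like those of ribosomal proteins, 3 were called lower and none higher, with a median of -0.05. These were the elongation factors Eef2 at -0.28 (adjusted p = 0.00183), Eef1a1 at -0.16 and Eef1g at -0.15 in the authors' deposited table. Of 35 factors of ribosome biogenesis, 2 were called lower, Eif6, which keeps the subunits apart, at -0.41 and Bop1, of ribosomal RNA processing, at -0.34 in the authors' deposited table. In that list 28 of 35 were negative, with a median of -0.10, where 53.1% of all genes with an adjusted p were negative. Of the ribosomal proteins with other symbols, Gnb2l1 (Rack1) at -0.17 (adjusted p = 0.0675) and Fau at -0.15 were not called in the authors' deposited table.

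Host genes of small nucleolar RNAs, many of which guide the modification of ribosomal RNA, had positive values. The log2 change was above 0 in all 7 with an adjusted p, their median was 0.23, and Gas5, whose message also begins with an oligopyrimidine, was called higher at 0.48 (SE 0.085, adjusted p = 4.56e-06 per the authors' deposited table). Snhg6 at 0.34 (adjusted p = 0.0840) and Snhg3 at 0.24 (adjusted p = 0.183) were not called in the authors' deposited table. The 8 host genes with a known GC content had a median of 43.9%, against 50.1% over all genes with an adjusted p. The trend in GC content was not subtracted from these values. Of all 11218 genes with an adjusted p, 11.7% were called and 5256 had a log2 change above 0. Of 50 genes with an Eif symbol, mostly initiation factors, 1 was called higher and 6 lower, with a median of -0.06. The 1 higher was the helicase gene Eif4a2 at 0.50 (SE 0.054, adjusted p = 6.45e-17 per the authors' deposited table), and the lower ones included Eif4ebp2, an inhibitor of initiation, at -0.34 and Eif5a at -0.31.

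**Figure D5:**
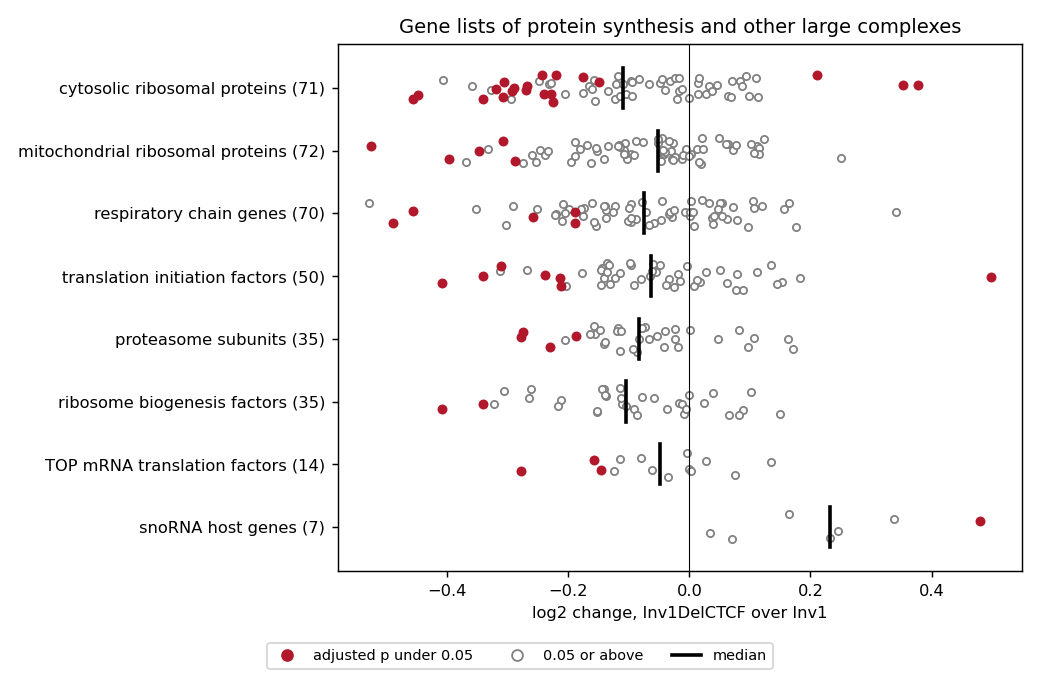
The log2 change of each gene with an adjusted p in 8 lists, from the authors' deposited table, with the number of genes in brackets, the median as a bar and genes with an adjusted p under 0.05 in red. The medians lie between -0.11 for the cytosolic ribosomal proteins and -0.05 for the mitochondrial ribosomal proteins and the factors with such messages, and at 0.23 for the snoRNA host genes.

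Other large complexes were counted for comparison. Of all 11218 genes with an adjusted p, 11.7% were called, 7.89% lower and 3.81% higher, and 2928 had an unadjusted p under 0.05. Of 72 mitochondrial ribosomal protein genes 5 were called lower and none higher (median -0.05, 13 with an unadjusted p under 0.05), of 70 respiratory chain genes 5 lower and none higher (median -0.07, 20 unadjusted), and of 35 proteasome genes 4 lower and none higher (median -0.08, 11 unadjusted) in the authors' deposited table. Among 15 regulators of ribosomal protein synthesis, Mycn, which drives ribosome production, was called lower at -0.60 (SE 0.119, adjusted p = 7.15e-05), as were Eif4ebp2 and Rptor, a part of the mTOR complex (-0.26), in the authors' deposited table. The kinase gene Rps6kb1 was called higher at 0.19 (adjusted p = 0.0292), and Myc at -0.36 (adjusted p = 0.0533) was not called in the authors' deposited table. Mtor was at -0.09 and Larp1 at -0.18 in the authors' deposited table, neither called. Of 14 p53 targets 2 were called lower, Zmat3 at -0.52 and Bax at -0.25, and the widely used targets Cdkn1a at -0.03 and Mdm2 at 0.08 were not called in the authors' deposited table.

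The tissue label was checked against markers, with summed levels in Inv1 and Inv1DelCTCF rebuilt from the authors' deposited table. All 11 distal forelimb markers were present, with sums of 89100 and 86442, with Prrx1 and Hoxd13 the most abundant. Their median log2 change was -0.21, 6 of the 11 had an unadjusted p under 0.05, and Hoxa13 at -0.30 (adjusted p = 0.0330) and Hoxd12 at -0.25 (adjusted p = 0.0133) were called lower per the authors' deposited table. The hindlimb genes summed to 777 and 669 and Pitx1 had a mean of 19.2. Beside all marker counts here, 11.7% of genes with an adjusted p were called, and 16.0% of those with a mean of at least 1000. The trend in GC content was not subtracted from the values of any marker list. The sums of markers of other cell types are given as values, with no test of their own. Surface ectoderm markers summed to 11539 and 9589, with all 7 negative and 4 called lower, and endothelial markers to 7669 and 6836, with 1 of 5 called lower. Erythroid markers summed to 87176 and 81972, with 2 of 6 called lower (Hba-x at -0.44 and Hbb-bh1 at -0.28 per the authors' deposited table) and Hba-a1 at 0. Muscle precursor markers summed to 2193 and 2767, macrophage markers to 815 and 1008, and neural crest and nerve markers to 1129 and 1437, with none called by the authors' DESeq2 test and 0, 1 and 1 genes at an unadjusted p under 0.05. No marker of these other lists but Hba-a1 was at 0. Sequence shared with other genes was not measured for Hba-a1, so its listing at 0 is not read as absence. What part these cell types had in the changes of ribosomal protein genes was not tested.

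None of the 71 genes is listed in the authors' deposited tables against wild type, which hold genes around the inversions. Those tables hold 1 ribosomal protein gene, Rpl37a, which the selection leaves out. Its log2 change over wild type was -0.12 in Inv1 (adjusted p = 0.890), -0.15 in Inv2 (adjusted p = 0.356), -0.14 in Inv3 (adjusted p = 0.222) and -0.25 in Inv4 (SE 0.088, adjusted p = 0.0261 per the authors' deposited table)s. Of the genes listed, the share called was 8.97% in Inv1, 4.05% in Inv2, 32.9% in Inv3 and 20.8% in Inv4, and Rpl37a was called in Inv4 only. The difference between the inversions was not tested. The 4 comparisons share the 5 wild type libraries. In Inv1DelCTCF against Inv1 the log2 change of Rpl37a was 0.07 (adjusted p = 0.591) in the authors' deposited table. In GRCm38 the 71 genes lie on 18 chromosomes, 14 of them on chromosome 7 and only 2, Rpl7 and Rpl31, on chromosome 1, which holds the inversions.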

How the data were processed

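The series holds 23 libraries in 7 groups, deposited as 5 tables of the authors' comparisons, 4 of them against wild type. Per the submitters' processing notes the tools were STAR and DESeq2 on mm9; versions, the counting step and its annotation are not given in the sources used here. Per the file headers, each table gives a mean normalised count (a signal pooled over the libraries of a fit), then a log2 fold change and SE, a Wald score, a p-value and an adjusted p-value. The 3 Inv1 libraries of stem cells were not analysed here.

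The headers do not name the numerator. Over 49 genes with a mean of at least 300, group means rebuilt from both fits differed by a median of 0.0124 (log2) when positive means higher in the mutant in the tables against wild type and higher in Inv1 in the other. Under the other 3 conventions it was 0.107 to 0.132. Both signs were set from this, and that of the second table was turned to make positive higher in Inv1DelCTCF. Group levels were rebuilt as the mean split by the fold change over 3 and 2 libraries. A gene was called at the deposited adjusted p under 0.05, and 95% intervals come from the SE.

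Length, GC content (longest transcript) and 50-base words came from GENCODE for GRCm38, a different build, so no deposited gene was placed by coordinates. All 71 genes and 97.5% of the genes with an adjusted p had a length and GC content. The trend was a weighted least squares fit with cubic terms of log2 length and of GC content and 1 product term, and Benjamini-Hochberg adjustment followed over 10940 genes. The call rule with its adjustment, the trend subtraction and the rebuilding of group levels were tested on simulated data. The sign check and the shared words were not. Alternatives covered thresholds, minimum counts, scaling, the trend and transcript length.

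The genes and gene lists were chosen with earlier results of these data known. Named genes are the 10 highest and 10 lowest changes, the 5 highest and lowest per kb, stalk, paralog and patterning genes, Rpsa, Rpl5, Rpl11, those nearest the count limit, and up to 3 genes of each other list with the smallest adjusted p; Rps6, Rpl8, Rpl13, the further called genes and single regulators were named after their values were seen. A few genes of the lists are not reported by name here, and the plots with gene names leave them out. Software was SciPy 1.17.1, NumPy 2.4.6 and pandas 2.3.3 under Python 3.11.15, with matplotlib 3.10.9 for figures.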

Additional observations from a re-analysis of the deposited data

How the results depend on the processing

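The count of 20 ribosomal protein genes called (3 higher, 17 lower) was 9 (2 and 7) at an adjusted p under 0.01, 12 (2 and 10) with a change of at least 0.25 on the log2 scale, and 6 (1 and 5) with the GC and length trend subtracted. Among the 13 genes with under 50% of coding 50-base words shared it was 2, both lower, a split chosen after seeing the data. That is 15.4%, beside 11.7% of all genes with an adjusted p and 16.0% of those with a mean of at least 1000. The count for the 71 genes lay between 16 and 24 with an adjusted p under 0.1, adjustment over all 21940 genes with a p-value and subtraction of the median of all genes (-0.01). A minimum mean of 10 or 1000, or, chosen after seeing the data, an SE of at most 0.15, adds or removes uncalled genes only, so the count of 20 could not change. The median log2 change was between -0.12 and -0.08 in every alternative run, and the median level per kb was 13418 with the longest and 15973 with the median transcript length. The 31 named genes followed singly included the 20 called, and 15 of these 20 lost their call with the trend subtracted. Rps27l, not called, moved from 0.11 to -0.00. The cause was not tested. Leaving out each replicate could not be run, since the tables hold no value per library. No paired analysis was possible because the tables carry no replicate numbers. For the same reason the depth of a library and its share in the wide SEs of Rpl36, Rplp1, Rplp2, Rpl31 and Rps29 are unknown.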

Other observations

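Among the pseudogene rows named for a ribosomal protein, 4 of 7 had an adjusted p. Rpl14-ps1 had a log2 change of 0.84 (adjusted p = 9.00e-09) and Rps15a-ps6 one of 0.54 (adjusted p = 0.0384) in the authors' deposited table, both called higher, while their parent genes Rpl14 and Rps15a stood at -0.16 and 0.09, neither called. Rpl31-ps12 at -0.44 and Rpl13a-ps1 at -0.06 were not called in the authors' deposited table. Their mean counts, between 138 and 447, were low against those of most ribosomal protein genes, and reads shared with the parent genes were not separated here.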
